A study of Rattus norvegicus with 6 samples.

Results

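The synaptic vesicle release machinery is the set of presynaptic proteins that fill, dock, prime and fuse vesicles. It was taken as a list of 53 genes, of which 52 were found by symbol in the table of 17455 genes and 1, Cadps2, was not. All 52 were among the 11800 genes with enough counts to be tested, so no member was lost to the filter on low counts. Hippocampal RNA was sequenced from 3 Fmr1 KO and 3 WT rats, all males aged 10 weeks on a Long Evans background, with 1 library per rat. The KO rats carried the germline allele LE-Fmr1em2Mcwi in all cells, and WT rats were bred in the same cross. According to the study's methods a single litter per group served for RNA sequencing, so that litter and genotype cannot be told apart where the groups came from different litters.

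Transmitter release starts when a vesicle SNARE, encoded by Vamp1 or Vamp2, zippers with the plasma membrane SNAREs syntaxin and SNAP25. Munc13 and RIM proteins of the active zone dock and prime the vesicle, complexins hold the assembled SNAREs, and synaptotagmins with C2 domains trigger fusion when calcium enters. Synapsins tether vesicles in the reserve pool, and vesicular transporters load them with glutamate. FMRP, the protein encoded by Fmr1, binds RNA and represses translation, and in the mouse brain its bound mRNAs include many of presynaptic proteins. The counts analysed here measure mRNA levels, not translation.

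The libraries held 9619812 to 13390476 counts in genes. Levels are given as CPM, the counts of a gene scaled to the size of its library with TMM factors (0.985 to 1.01), and are compared only within a gene, since a long transcript yields more reads. The targeted gene, Fmr1, had 17.4, 13.1 and 11.6 CPM in KO rats, against 47.6, 50.6 and 51.6 CPM in WT rats, so that every library matched its label (log2 fold change -1.83, SE 0.12, edgeR adjusted p = 5.7e-06). In a principal component analysis the KO libraries had first component scores of -11.0 to -5.49, and WT replicate 3, at -6.20, fell among them, whereas the other WT libraries scored 12.4 and 19.6. This component held 28.8% of the variance. The summed level of 10 neuron markers was 4818 to 5125 CPM in KO rats and 4583 to 5177 CPM in WT rats, and that of 8 tested markers of CA pyramidal cells was 1381 to 1522 CPM in KO rats and 1441 to 1698 CPM in WT rats, so both pairs of ranges overlapped. Of these 8 pyramidal cell markers, however, 7 had a negative log2 fold change (median -0.14). Bok, Rgs14 and Mpped1 were lower at an unadjusted edgeR p under 0.05 with no overlap between the groups. These 3 were 37.5% of the list, where 9.35% of all genes tested had such a p and 14.7% did not overlap, in either direction. Of 10 oligodendrocyte markers all had a negative log2 fold change, with summed levels of 10480 to 11988 CPM in KO and 13255 to 14016 CPM in WT rats. At the same p, 5 of these 10 were lower (50%), and 6 had all KO libraries below all WT libraries (60%). The 3 tested of 7 choroid plexus markers also summed to less in every KO library (7.88 to 11.5 CPM) than in any WT library (12.99 to 14.9 CPM). Otx2 had 0 counts in all 6. The 5 endothelial markers summed to more (254 to 259 CPM in KO, 236 to 253 CPM in WT). Of these genes, 1 of the 3 choroid plexus markers had a positive log2 fold change, and 1 of the 5 endothelial markers a negative one. In both lists the KO and WT libraries overlapped for every single marker. The part of all these marker lists in the values below was not tested. In bulk tissue fewer cells of a type and less RNA per cell cannot be told apart.

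Of the release machinery genes, Syt13 was lower and Syn3 was higher in the hippocampus of KO rats at the nominal threshold, an unadjusted edgeR p under 0.05, and the other members did not pass it. The study's methods set the same cutoff on p-values from DESeq2. By that tool Syt13 and Rims2 passed (DESeq2 unadjusted p = 0.0329 for Rims2) while Syn3 did not (DESeq2 unadjusted p = 0.0843). In DESeq2 2 of the 52 members thus passed, where 5.79% of 14474 genes did. None of the 52 members passed an adjusted p of 0.05 in edgeR, where 0.0254% of all genes tested did. DESeq2 passed 1, Syt13, and 35 genes in all. DESeq2 gave an adjusted p to only part of the 14474 genes. Among members it gave none to Cplx3, Syt2, Syt6, Syt9, Syt10, Rims3, Rab3c, Syn3, Sv2c and Slc17a6, so these could not pass. At the nominal threshold 1 member was higher and 1 lower in KO rats, or 3.85% of the members, against 9.35% of all genes tested (4.19% higher and 5.15% lower). In 5 members, or 9.62%, the KO and WT libraries did not overlap, 4 with KO above and 1 with KO below, against 14.7% of all genes tested (7.19% with KO above and 7.52% with KO below). Of the 52 members, 29 had a positive and 23 a negative log2 fold change, with a median of 0.0079 beside 0.0017 over all genes tested. On the log2 scale 0 members differed by more than 0.5, where 336 of the 11800 genes tested did. The median size of the log2 fold change was 0.080 for members and 0.093 for all genes tested. Members had more reads than most genes, since 39 of 52 lay above the median CPM of all genes tested. The median SE was 0.079 for members and 0.101 for all genes tested, and these comparisons were not matched for level. The number of members past the nominal threshold, 2 over all libraries, was 4 without KO replicate 2, without KO replicate 3 or without WT replicate 1, where 8.76%, 7.04% and 6.93% of all genes tested passed, and 6 without WT replicate 3, where the share of all genes was 17.6%, against 9.35% with all libraries. No member was higher at that threshold without KO replicate 1 or without WT replicate 2, where 5.89% and 5.9% of all genes tested passed in either direction. WT replicate 3 was the WT library that lay among KO libraries on the first principal component. Without it Syt13 passed the adjusted threshold (edgeR adjusted p = 0.0230), where 256 of 11891 genes tested passed, against 3 of 11800 with all libraries. The log2 fold change of Syt13 was -0.42 in both fits, and its edgeR unadjusted p was 1.74e-04 without WT replicate 3.

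**Figure D1:**
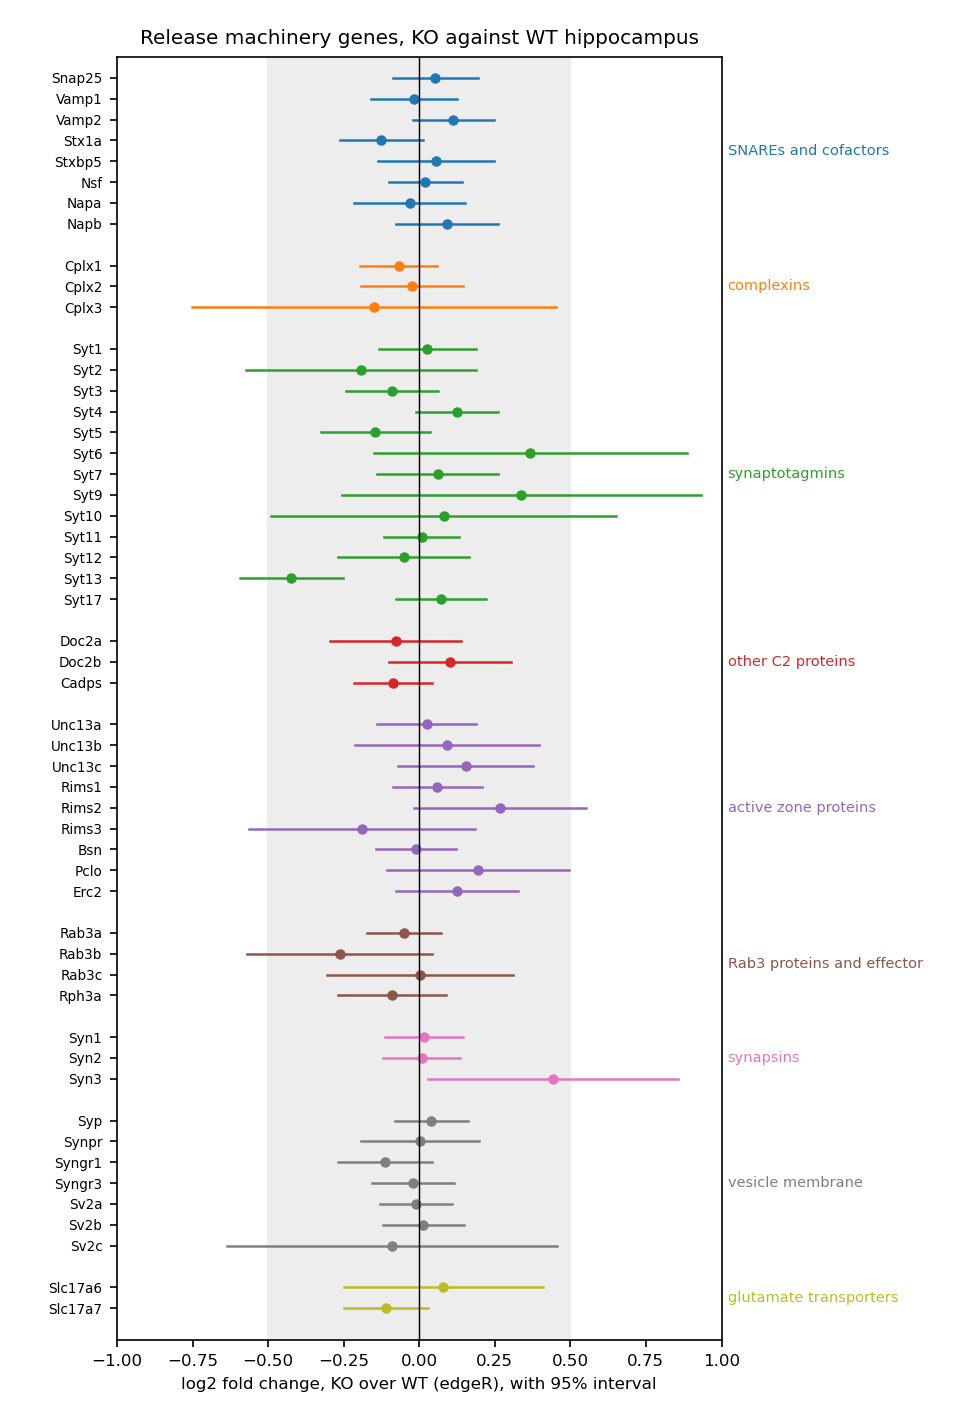
Log2 fold change of KO over WT (x axis) for the 52 tested members of the release machinery (y axis), grouped by role. Points are edgeR estimates, lines are 95% intervals, and the grey band spans 0.5 on either side of 0. The interval lies wholly below 0 for Syt13 and wholly above 0 for Syn3, and it crosses 0 for every other member.

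A p-value above the threshold does not show that a level is equal, so the 95% interval of the log2 fold change was used to state which sizes of change the data left possible. The interval lay within 0.5 of 0 for 41 of 52 members (78.8%), against 74.3% of all genes tested. These shares were not matched for level either. For all 11 members at 500 CPM or more, among them Snap25, Vamp2, Syp, Syn1, Syt1, Rab3a and Slc17a7, the intervals stayed between -0.25 and 0.25. Their log2 fold changes ran from -0.11 (Slc17a7) to 0.11 (Vamp2), with a median SE of 0.061. The 19 members between 100 and 500 CPM also had intervals within 0.5 of 0 without exception, the widest reaching 0.50 for the active zone scaffold Pclo. Of the 14 members between 10 and 100 CPM, 11 did. Of the 8 members under 10 CPM, Cplx3, Syt2, Syt6, Syt9, Syt10, Rims3, Syn3 and Sv2c, none did, and their SEs of 0.18 to 0.28 left intervals from -0.75 to 0.93. For these 8 genes a difference of 0.5 in at least 1 direction was therefore within the interval. The median SD within groups was 0.118 on the log2 CPM scale for members and 0.122 for all genes tested.

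**Figure D2:**
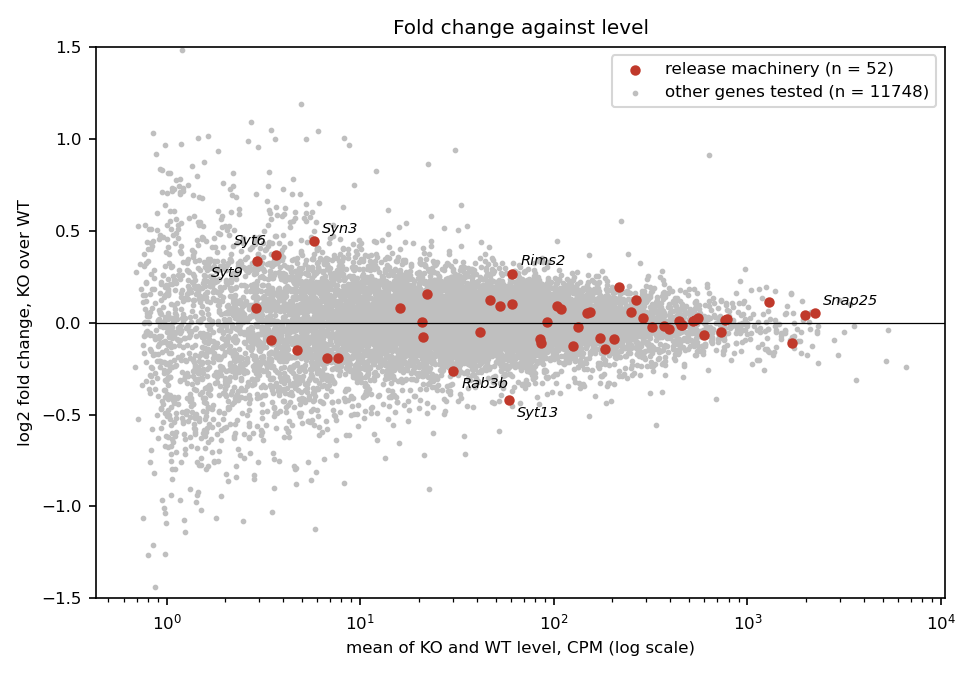
Log2 fold change of KO over WT (y axis) against the mean level of both groups in CPM (x axis, log scale), for the 52 members in red and the other genes tested in grey; 8 genes tested lie outside the plotted range. Members above 500 CPM lie within 0.11 of 0, and those farthest from 0 are Syn3 at 0.44 and Syt13 at -0.42.

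Synaptotagmins are vesicle and membrane proteins with paired C2 domains, of which Syt1, Syt2 and Syt9 are the fast calcium sensors of release. Among 13 tested, 1 was lower and 0 were higher at the nominal threshold, or 7.69% against 9.35% of all genes tested. Libraries did not overlap in 15.4% of the 13, against 14.7% of all genes tested. Syt13, a family member whose C2 domains lack the residues that bind calcium, had 44.9, 50.9 and 53.8 CPM in KO rats, against 67.9, 65.6 and 67.1 CPM in WT rats. All KO libraries were thus below all WT libraries, and the KO libraries were spread more widely than the WT libraries, with 49.9 ± 4.52 CPM in KO and 66.9 ± 1.17 CPM in WT rats (mean ± SD, n = 3 each). The log2 fold change was -0.42 (SE 0.08, 95% interval -0.59 to -0.25), so that the level decreased by 25.4% (edgeR unadjusted p = 9.92e-05, adjusted p = 0.130). It was the 1 member that passed the nominal threshold with all libraries and in all 11 alternatives, where the adjusted p ranged from 0.0105 in DESeq2 to 0.679 without KO replicate 1. With 3 libraries against 3, the exact two-sided permutation test cannot go below p = 0.1, the value it gave for Syt13. In the same KO libraries the oligodendrocyte and choroid plexus sums were lower and the endothelial sum was higher than in all WT libraries, and their part in the Syt13 level was not tested.

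No other synaptotagmin passed with all libraries. Syt1, the main calcium sensor of fast release in the forebrain, had 604.8, 561.6 and 509.6 CPM in KO rats, against 565.6, 498.3 and 581.3 CPM in WT rats. The 2 groups covered the same range, with a log2 fold change of 0.03 (95% interval -0.13 to 0.19), which was -0.03 without KO replicate 1. Syt4, a synaptotagmin that also regulates dense core vesicles, had 269.3, 265.1 and 301.7 CPM in KO rats, against 250.003, 259.4 and 256.8 CPM in WT rats. Its KO libraries all lay above its WT libraries, KO replicate 3 by the widest margin, with a log2 fold change of 0.13 (SE 0.06, edgeR unadjusted p = 0.0690, adjusted p = 0.553). It was 0.06 without KO replicate 3 (edgeR unadjusted p = 0.317) and 0.16 without KO replicate 2 (0.0497). Syt11, which like Syt4 does not act as a calcium sensor, had a log2 fold change of 0.01, and Syt7, a sensor of slow and asynchronous release, of 0.06. Syt5 (-0.15), Syt3 (-0.09), Syt12 (-0.05) and Syt17 (0.07) overlapped between the groups. Without KO replicate 1 the log2 fold change of Syt5 was -0.26 (edgeR unadjusted p = 0.0039, adjusted p = 0.679). It was -0.08 without KO replicate 2 (edgeR unadjusted p = 0.396). The genes with few counts, Syt2, Syt6, Syt9 and Syt10, had log2 fold changes of -0.19, 0.37, 0.34 and 0.08 at group means of 2.60 to 8.22 CPM (edgeR unadjusted p from 0.151 to 0.764).

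The synapsins coat vesicles and bind them to actin, and Syn1 and Syn2 are the forms of mature terminals. Syn1 had 761.8, 748.3 and 791.0 CPM in KO rats, against 806.3, 733.6 and 734.3 CPM in WT rats, a log2 fold change of 0.02 (95% interval -0.11 to 0.15). Both groups overlapped fully, as did Syn2 at 0.01 (-0.12 to 0.14). Syn3, the form that is prominent early in neuronal development, had 85, 81 and 58 counts in KO libraries, against 64, 57 and 56 counts in WT libraries, or 7.87, 5.98 and 6.06 CPM in KO rats, against 5.58, 4.45 and 4.61 CPM in WT rats. Every KO library was above every WT library, with KO replicate 2 closest to WT replicate 1. The log2 fold change was 0.44 (SE 0.19, 95% interval 0.03 to 0.86, edgeR unadjusted p = 0.0376, adjusted p = 0.507). Syn3 passed the nominal threshold in 7 of 11 alternatives and missed it in DESeq2 and without KO replicate 1, WT replicate 2 or WT replicate 3. The exact permutation test gave its smallest value, p = 0.1.

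**Figure D3:**
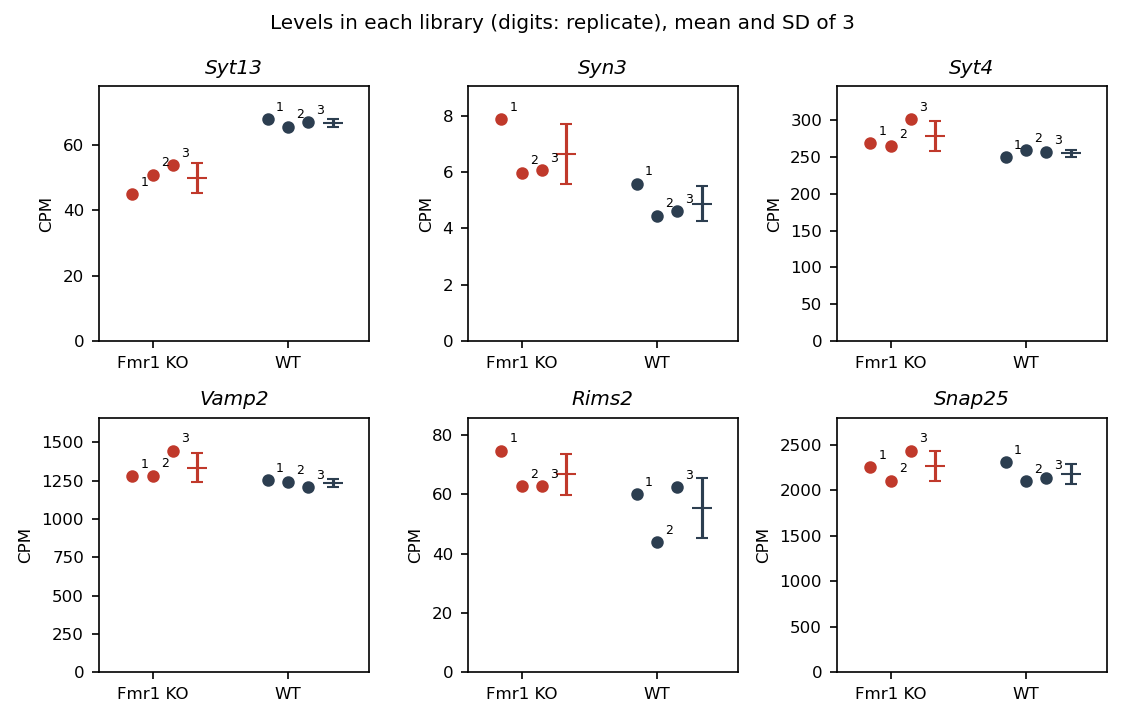
Levels in CPM (y axis, from 0) of 6 release machinery genes in each KO library (left, red) and each WT library (right, dark), with the replicate number beside each point and the mean and SD of 3 libraries as bars. Syt13 is lower in all 3 KO libraries, Syn3, Syt4, Vamp2 and Rims2 are higher in all 3, and Snap25 overlaps between the groups.

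None of the 8 genes of SNAREs and the proteins that tether or disassemble them passed the nominal threshold in either direction, and all 8 intervals lay within 0.5 of 0. Snap25, whose product contributes a pair of helices to the SNARE bundle, had 2255, 2107 and 2437 CPM in KO rats, against 2309, 2102 and 2140.4 CPM in WT rats. The groups overlapped, with a log2 fold change of 0.05 (95% interval -0.09 to 0.19), which was -0.0019 without KO replicate 3. Vamp2, the main vesicle SNARE of forebrain terminals, had 1279.9, 1284 and 1446 CPM in KO rats, against 1256, 1242 and 1209 CPM in WT rats. Its KO libraries all lay above its WT libraries, and KO replicate 3 was the highest by a wide margin. The log2 fold change was 0.11 (SE 0.06, edgeR unadjusted p = 0.0896, adjusted p = 0.575), and it was 0.05 without KO replicate 3 (unadjusted p = 0.388). Vamp1, its paralog, had a log2 fold change of -0.02. Stx1a, a syntaxin of the plasma membrane, had 118.2, 126.1 and 117.6 CPM in KO rats, against 132.6, 125.6 and 136.9 CPM in WT rats, and the groups overlapped by 1 library on either side (log2 fold change -0.13, SE 0.06, edgeR unadjusted p = 0.0705). The ATPase Nsf and its adaptors Napa and Napb, which take spent SNARE bundles apart, had log2 fold changes of 0.02, -0.03 and 0.09, and the tomosyn gene Stxbp5, an inhibitor of SNARE assembly, of 0.06. Among the complexins, which clamp and then assist the assembled SNAREs, Cplx1 had 555.4, 602.0 and 585.1 CPM in KO rats, against 586.8, 611.6 and 628.5 CPM in WT rats, a log2 fold change of -0.07 (95% interval -0.19 to 0.06). Cplx2 (-0.02) and the scarcely counted Cplx3 (-0.15, 40 to 65 counts a library in both groups together) also overlapped.

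Promoter sequences were read from RefSeq on the GRCr8 assembly as windows of 300 bases, 250 before and 50 after each gene start, the first listed window of each gene. They covered 40 of the 53 members, but not Syt13, Syn3, Rims2 or Snap25. The windows of Vamp2 and Syt4 are shown because both genes had all KO libraries above all WT libraries, and that of Syn1 because it holds a full cAMP response element. Capitals mark matches, on either strand, to GGGCGG (the GC box bound by Sp1), CCAAT (the box of the factor NF-Y), TGACG (the core of the cAMP response element), CACGTG (the canonical E-box), TATAAA (the TATA box) and TCAGCACC (part of the site of the neuronal gene repressor REST).
Vamp2, chr10:54292539-54292838, plus strand: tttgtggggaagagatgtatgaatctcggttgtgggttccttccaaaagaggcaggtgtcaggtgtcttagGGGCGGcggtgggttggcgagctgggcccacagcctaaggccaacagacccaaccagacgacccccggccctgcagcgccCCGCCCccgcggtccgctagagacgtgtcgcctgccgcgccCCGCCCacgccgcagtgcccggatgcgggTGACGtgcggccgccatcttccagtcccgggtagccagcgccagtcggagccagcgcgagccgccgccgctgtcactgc
Syt4, chr18:23320814-23321113, minus strand: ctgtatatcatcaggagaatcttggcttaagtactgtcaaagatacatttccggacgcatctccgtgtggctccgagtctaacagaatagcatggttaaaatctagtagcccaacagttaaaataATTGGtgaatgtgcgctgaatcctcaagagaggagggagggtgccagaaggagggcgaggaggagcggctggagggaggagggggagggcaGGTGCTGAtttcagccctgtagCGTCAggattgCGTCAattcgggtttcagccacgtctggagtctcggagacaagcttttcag
Syn1, chrX:3725495-3725794, plus strand: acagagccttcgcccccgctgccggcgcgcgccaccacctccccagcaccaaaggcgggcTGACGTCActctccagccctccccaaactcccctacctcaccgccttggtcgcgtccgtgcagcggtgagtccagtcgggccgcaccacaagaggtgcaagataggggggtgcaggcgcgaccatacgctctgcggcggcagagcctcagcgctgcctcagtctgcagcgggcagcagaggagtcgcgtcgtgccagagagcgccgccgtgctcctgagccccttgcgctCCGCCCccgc
The windows of Vamp2 and Syn1 hold GC boxes, whereas that of Syt4 holds none and has the REST part site, printed as its reverse complement. The full cAMP response element TGACGTCA, which contains the core on both strands, stands in the Syn1 window.

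Over the 40 members with a window, 30 held GGGCGG (75%), against 34.9% of the first windows of all 27457 genes and 62.5% of those of 9355 genes tested in these libraries. The full element TGACGTCA was in the windows of Syn1, Napa and Vamp1 (7.5%), against 1.91% of all genes and 3.14% of the genes tested, and its core TGACG was in 11 (27.5%), against 22% and 31.6%. TCAGCACC was in the windows of Syt4, Rab3c and Unc13a (7.5%), against 1.58% of all genes and 1.81% of the genes tested. CACGTG was in 5 (12.5%, against 6.65% and 9.24%) and CCAAT in 14 (35%, against 37.7% and 37.1%). No window of a member held TATAAA, which 14.3% of all genes and 6.57% of the genes tested had. The median GC content was 64.2% for members and 52.3% for all genes, from 45.7% for Unc13c to 79.7% for Syt9. These matches are descriptions of the windows and say nothing on binding.

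The active zone genes encode the scaffolds and priming factors at the release site, and 7 of the 9 had a positive log2 fold change (median 0.093), while 0 of the 9 passed the nominal threshold. Rims2, a RIM protein that links vesicles and calcium channels, had 74.7, 62.7 and 62.7 CPM in KO rats, against 60.1, 43.8 and 62.4 CPM in WT rats. Its groups did not overlap, but the lowest KO library and WT replicate 3 were nearly level, and WT replicate 2 stood well below the others. The log2 fold change was 0.27 (SE 0.13, 95% interval -0.02 to 0.55, edgeR unadjusted p = 0.0632, adjusted p = 0.549), and it was 0.36 without WT replicate 3 (edgeR unadjusted p = 0.0246, adjusted p = 0.208). It was 0.12 without WT replicate 2 (edgeR unadjusted p = 0.218) and 0.18 without KO replicate 1 (0.217), and the DESeq2 adjusted p was 0.472. Pclo, the giant scaffold piccolo, had 269.97, 226.5 and 198.6 CPM in KO rats, against 204.8, 173.5 and 229.5 CPM in WT rats. The groups overlapped, since WT replicate 3 exceeded 2 of the KO libraries, and the log2 fold change was 0.19 (SE 0.13). Its partner bassoon, encoded by Bsn, had 475.9, 447.2 and 443.1 CPM in KO rats, against 437.5, 452.9 and 486.1 CPM in WT rats, a log2 fold change of -0.01 (95% interval -0.14 to 0.12). The priming factors Unc13a, Unc13b and Unc13c had log2 fold changes of 0.03, 0.09 and 0.15, Rims1 of 0.06, the short RIM gene Rims3 of -0.19 and the ELKS family scaffold Erc2 of 0.12.

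The order of the libraries was alike across many of these genes. KO replicate 1 held the highest level of 6 of the 9 active zone genes and WT replicate 3 that of the other 3, whereas WT replicate 2 held the lowest level of 5. Over all genes tested, KO replicate 1 was highest in 17.1%, WT replicate 3 highest in 16.2% and WT replicate 2 lowest in 17.9%. Relative to the WT mean, the median of the 9 log2 CPM values was 0.21, 0.09 and -0.02 in KO replicates 1, 2 and 3, against -0.03, -0.15 and 0.11 in WT replicates 1, 2 and 3. The median over all 52 members stayed between -0.03 and 0.03 in every library, and that over all genes tested between 0.0025 and 0.0040. For the active zone genes these library medians overlapped between the groups. Without KO replicate 3, Pclo passed the nominal threshold (log2 fold change 0.29, edgeR unadjusted p = 0.0339), and without WT replicate 1, Erc2 did (0.21, edgeR unadjusted p = 0.0408). Other omissions lowered both values, to 0.07 without KO replicate 1 and 0.10 without WT replicate 2 for Pclo, and to 0.06 and 0.05 without the same libraries for Erc2.

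**Figure D4:**
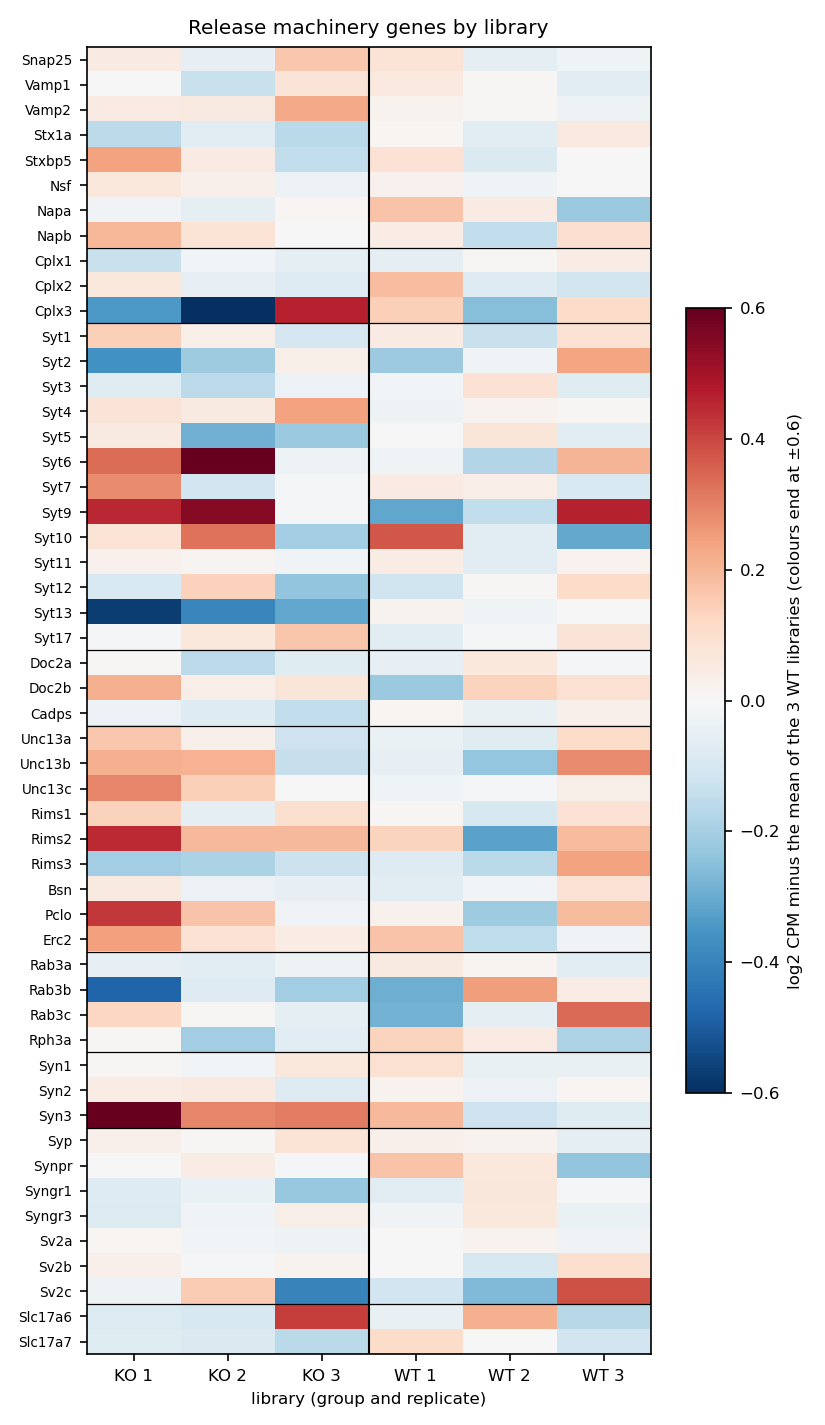
Log2 CPM minus the mean of the 3 WT libraries, for each member (rows, grouped by role and divided by lines) in each KO library (left) and WT library (right); red is above and blue below the WT mean, and colours end at 0.6. Syt13 is blue in all 3 KO libraries and Syn3 red, while most active zone rows, from Unc13a to Erc2, are red in KO replicate 1 and blue in WT replicate 2.

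Of the 3 tested genes of other C2 domain proteins and the 4 of the Rab3 set, 0 passed the nominal threshold. Cadps, which encodes the dense core vesicle priming factor CAPS, had 173.6, 168.1 and 160.5 CPM in KO rats, against 179.3, 172.3 and 181.6 CPM in WT rats. The groups overlapped by 1 library on either side, with a log2 fold change of -0.09 (SE 0.06). The high affinity calcium sensors Doc2a and Doc2b had log2 fold changes of -0.08 and 0.10. Rab3a, the GTPase that brings vesicles to RIM, had 720.6, 711.5 and 729.2 CPM in KO rats, against 773.7, 753.9 and 711.5 CPM in WT rats, a log2 fold change of -0.05 (95% interval -0.17 to 0.07). WT replicate 3 was level with the lowest KO library, and the other WT libraries were above all KO libraries. Rab3b had 23.3, 30.9 and 28.2 CPM in KO rats, against 26.6, 38.8 and 33.6 CPM in WT rats, with overlapping groups and a log2 fold change of -0.26 (SE 0.14, edgeR unadjusted p = 0.0862, adjusted p = 0.568). Without WT replicate 1 the log2 fold change of Rab3b was -0.39 (edgeR unadjusted p = 0.0054, adjusted p = 0.469), whereas it was -0.13 without WT replicate 2 (unadjusted p = 0.371) and -0.16 without KO replicate 1 (unadjusted p = 0.290). Rab3c was at 0.0025, and rabphilin, the Rab3 effector encoded by Rph3a, at -0.09.

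The genes of vesicle membrane proteins had log2 fold changes of -0.11 to 0.04 over 7 genes, with a median of -0.01, and 0 of the 7 passed the nominal threshold. Synaptophysin, encoded by Syp and a classical vesicle marker, had 1997, 1961 and 2071 CPM in KO rats, against 1997, 1984 and 1883 CPM in WT rats. The groups overlapped, and the log2 fold change was 0.04 (95% interval -0.08 to 0.16). Sv2a, a vesicle glycoprotein and the target of the drug levetiracetam, had a log2 fold change of -0.01 (95% interval -0.13 to 0.11), its paralogs Sv2b and Sv2c 0.01 and -0.09, and the synaptogyrins Syngr1 and Syngr3 -0.11 and -0.02. Synpr, a synaptophysin relative found in mossy fibre terminals, was at 0.0019 (95% interval -0.19 to 0.20). Slc17a7, which encodes the vesicular glutamate transporter VGLUT1 of most hippocampal excitatory terminals, had 1668, 1651 and 1564 CPM in KO rats, against 1892, 1757 and 1620 CPM in WT rats. WT replicate 3 lay among the KO libraries, and the other WT libraries were above all of them. The log2 fold change was -0.11 (SE 0.06, edgeR unadjusted p = 0.113, adjusted p = 0.619), and -0.16 without WT replicate 3 (edgeR unadjusted p = 0.0119, adjusted p = 0.149) but -0.05 without WT replicate 1 (unadjusted p = 0.451). Slc17a6, which encodes VGLUT2 of subcortical inputs, had 13.7 to 20.6 CPM over the 6 libraries and a log2 fold change of 0.08 (95% interval -0.25 to 0.41).

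Of 75 other genes of release, 70 were in the table and 62 were tested, and at the nominal threshold 1 was higher and 3 were lower in KO rats, or 6.45% against 9.35% of all genes tested. The median log2 fold change was 0.02. Higher was Snap23, the SNAP25 relative of non-neuronal and postsynaptic membranes, with 25.5, 24.7 and 30.2 CPM in KO rats, against 21.7, 21.4 and 20.8 CPM in WT rats (log2 fold change 0.32, SE 0.11, edgeR adjusted p = 0.365). Lower were Rabac1, a Rab acceptor (-0.28, SE 0.09), Tprg1l, the vesicle protein mover (-0.14, SE 0.06), and Svop, a transporter-like vesicle protein (-0.17, SE 0.08), and the adjusted p ran from 0.368 to 0.528. The Rabac1 and Svop libraries overlapped between the groups. Over this list 6 genes had KO above and 3 had KO below without overlap, or 14.5% against 14.7% of all genes tested. Without WT replicate 3 the counts were 7 higher and 6 lower, where 17.6% of all genes tested passed. Without WT replicate 1 there were 2 higher, where 340 of 11927 genes tested were higher and 6.93% passed in either direction. Without WT replicate 2 there were 2 higher and 1 lower, where 5.9% of all genes passed in either direction.

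Of 71 genes of vesicle recycling and acidification, covering clathrin, its adaptors, dynamins, endophilins and the vacuolar ATPase, 67 were tested, and at the nominal threshold 0 were higher and 3 lower, or 4.48% against 9.35% of all genes tested. These 3 were Sh3gl3, an endophilin (log2 fold change -0.26, SE 0.09), Rab11b, a GTPase of recycling endosomes (-0.17, SE 0.06), and Snap91, which encodes the clathrin assembly protein AP180 (-0.16, SE 0.06). Snap91 had 372.3, 379.5 and 355.5 CPM in KO rats, against 431.9, 417.4 and 386.7 CPM in WT rats. The KO and WT libraries did not overlap in any of these 3 genes, and the adjusted p was 0.385 to 0.453. Over the whole list the libraries did not overlap in 6 of 67 genes, 0 with KO above and 6 with KO below. That was 8.96%, against 14.7% of all genes tested. The median log2 fold change of the 67 genes was -0.03, with 24 positive and 43 negative, and all 67 intervals lay within 0.5 of 0. Without WT replicate 3 the counts were 2 higher and 14 lower, where 17.6% of all genes tested passed (1033 higher and 1062 lower). Without KO replicate 3 there were 0 lower, where 466 of 11926 genes tested were lower and 7.04% passed in either direction. Without WT replicate 2 there was 1 lower, where 377 of 11889 genes were lower (5.9% in either direction). Without KO replicate 2 there was 1 higher, where 460 of 11893 genes were higher (8.76% in either direction).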

How the data were processed

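Per the labels and the paper's methods, the authors isolated hippocampal RNA with Trizol, prepared libraries with a NEBNext Ultra II kit, which the paper alone calls directional, checked reads with FastQC, used HISAT2 to align single-end reads to rn6 and htseq-count for the reads of each gene. Versions, annotation and strand setting are not given in the sources used here, so reads of overlapping genes may not be told apart. The deposited table holds raw counts; all 6 columns matched a sample title. A second table with the authors' DESeq2 comparison (mean levels, fold changes, statistics and p-values) was not used. The tests used edgeR 4.0.16 under R 4.3.3: filterByExpr (minimum count 10), TMM, a robust quasi-likelihood fit with genotype as the only term, a two-sided test and Benjamini-Hochberg adjustment over 11800 genes. Intervals are 95% intervals from the standard errors of that fit. Its log2 fold changes and its calls were tested on simulated data, but how often the intervals hold the true value was not tested. P-values measure the spread between the rats of a group. By the study's methods these came from a single litter, so the spread between litters is not measured. Alternatives were DESeq2 1.42.0, RLE factors, no count filter, no robust dispersion, the replicate number as a block and leaving out each library. Members and lists were chosen with earlier results of these data known. Per-library values are given for members past the nominal threshold, members whose groups do not overlap and the member with the highest CPM of each role; Stx1a, Pclo and Rab3b were added after their values were seen. Other genes named were up to 3 per list and direction with the smallest p among those under 0.05.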

Additional observations from a re-analysis of the deposited data

How the results depend on the processing

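Of the members, 0 passed an adjusted p of 0.05 in edgeR, and 1, Syt13, passed in DESeq2 (adjusted p = 0.0105) and when no genes were filtered out (adjusted p = 0.0464); leaving out 1 library gave 0 to 1. At the nominal threshold 1 member was higher, against 2 with no robust dispersion, 2 with the replicate block and 0 to 2 when 1 library was left out, and 1 member was lower, against 2 with the replicate block and 2 to 4 when 1 library was left out. Among other release genes 1 higher became 2 with the replicate block and 1 to 7 when 1 library was left out, and 3 lower became 5 when no genes were filtered out and 1 to 6 when 1 library was left out. Among recycling genes 0 higher became 0 to 2 and 3 lower became 0 to 14 when 1 library was left out. The share of all genes tested at an unadjusted p under 0.05 also moved. It was 9.35% in edgeR with all libraries, 5.79% in DESeq2 and 8.5% when no genes were filtered out. With no robust dispersion it was 9.36%, and with the replicate block 9.4%. When 1 library was left out it ran from 5.89% (without KO replicate 1) to 17.6% (without WT replicate 3). Over all genes, 3 passed an adjusted p of 0.05 in edgeR, against 35 in DESeq2, 9 with no genes filtered out, 17 with the replicate block, and 1 (without KO replicate 1) to 256 (without WT replicate 3) when 1 library was left out. Same-numbered KO and WT libraries did not deviate together over all genes tested (correlations of 0.028, -0.0088 and -0.078). Differently numbered libraries had correlations of -0.080 to 0.083. These values cannot show whether the numbers pair the rats, since a pairing could affect few genes and the labels do not explain the numbers. When 1 library was left out, the log2 fold change ran from -0.0019 to 0.10 for Snap25 (negative without KO replicate 3), from -0.036 to 0.089 for Syt1 (negative at -0.035 without KO replicate 1 and -0.036 without WT replicate 2), from -0.045 to 0.032 for Bsn (positive at 0.0014, 0.0083 and 0.032 without KO replicate 2, KO replicate 3 and WT replicate 3) and from -0.0058 to 0.064 for Syn1 (negative at -0.0056, -0.0048 and -0.0058 without KO replicate 3, WT replicate 2 and WT replicate 3). The causes were not tested. Low counts limit the 8 members under 10 CPM, and why their counts were low was not tested.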

Other observations

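Npy, a neuropeptide gene of interneurons that was on the marker list, had 0 to 2 counts in each of the 6 libraries, and Fibcd1, on the list of CA pyramidal cell markers, had 5 to 11. Both were too low to be tested, so the interneuron and pyramidal cell sums rest on 8 genes each.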
